A study of Mus musculus with 5 samples.

Results

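The 10 genes described here are components of the WNT pathway, measured in mouse mandibular tissue at embryonic day 10.5: the ligand gene Wnt5a, its receptor gene Ror2, the secreted inhibitor genes Sfrp1, Sfrp2 and Dkk1, the nuclear factor gene Lef1, the feedback inhibitor genes Axin2, Nkd1 and Nkd2, and the target gene Ccnd1. They were chosen by symbol, all 10 were found among the 23441 gene rows of the count table, and all 10 passed the filter on low counts that left 12710 genes for testing. Poly(A) RNA was sequenced in 2 libraries of dCKO embryos and 3 libraries of control embryos. The dCKO embryos were Wnt1Cre; Yapf/f, Tazf/f on a C57BL/6J x CBA/J; 129SvEv background. The controls were Yapf/f, Tazf/f on 129SvEv, so both groups shared the floxed alleles, the labels name no Cre in the controls, and the deletion cannot be told apart from the strain background or from the Cre itself. Wnt1Cre is driven by regulatory sequence of the Wnt1 gene and acts in the neural crest. Cells of other origin in the tissue, such as the epithelium and the endothelium, therefore keep intact alleles. No label states whether each library is a separate embryo, and the p-values therefore reflect only the spread among these 5 samples, some of which may be technical.

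WNT ligands are secreted proteins that bind Frizzled receptors. In the canonical branch this stops a cytoplasmic complex that includes Axin proteins from destroying beta-catenin, which then acts with LEF and TCF factors on target genes such as Axin2. Other ligands, Wnt5a among them, mostly act through receptors such as Ror2 on cell shape and polarity, and WNT signals between arch epithelium and neural crest mesenchyme take part in the outgrowth and patterning of the facial processes. YAP and TAZ, the proteins of Yap1 and Wwtr1, are transcriptional coactivators of the Hippo pathway that have also been tied to the beta-catenin destruction complex.

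Of the 10 genes, 1 changed between the groups. Sfrp2 fell to 0.681 of its control level in dCKO tissue, whereas the other 9 genes did not pass the test. Genes were called at an adjusted p below 0.05 (edgeR's quasi-likelihood test, Benjamini-Hochberg adjustment over all genes tested), and the members' count stands against 6.42% of all genes tested that were called in either direction and 1.42% that were called lower. Of the 10 estimates, 5 were above and 5 below the control level, with a median log2 fold change of −0.0039, against −0.00062 over all genes tested. Before adjustment, 3 of the 10 had a p below 0.05, compared with 21.5% of all genes tested.

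Library totals ran from 6491137 to 13298973 counts, with both dCKO libraries deeper than any control. Yap1 and Wwtr1, the targeted genes, fell to 0.398 and 0.404 of the control level (edgeR adjusted p = 1.31e-05 and 1.56e-04). In the authors' deposited table their adjusted p was 0.0199 and 0.0746. The counts of Hbb-bh1, Hbb-y and Hba-x, the embryonic globins, made up 5.30% to 7.43% of all counts in dCKO libraries and 0.335% to 0.441% in controls, and levels are therefore given as CPM (counts scaled to library depth) with a library scaling (TMM) that allows for such a shift. On that scale Yap1 measured 174.6 and 169.9 CPM in dCKO libraries, against 311.8, 475.0 and 512.1 CPM in control libraries 1, 2 and 3. Wwtr1 measured 22.7 and 22.8 CPM, against 38.4, 65.1 and 66.2 CPM. For both genes control replicate 1 was the lowest control. All 12 listed markers of neural crest mesenchyme were detected, and their summed level was 2008 and 2091 CPM in dCKO libraries, against 2168 to 2323 CPM in controls. Summed epithelial markers measured 627 and 628 CPM in dCKO libraries, against 434 to 529 CPM in controls. Among red cell markers, the adult globins Hba-a1 and Hbb-b1 had 0 counts in all 5 libraries. How the authors treated reads that match several genes is unknown. The 0 counts therefore cannot show that adult globin transcripts were absent, and this was not tested. In bulk tissue, fewer cells of a type and less RNA per cell cannot be told apart. Of the 12710 genes, 636 were called higher and 180 lower in dCKO tissue. The split was 531 and 469 with total counts as the only scaling, and 459 and 583 after each library's trend with GC content was removed. In those settings the median log2 fold change over all genes tested moved from −0.00062 to −0.076 and −0.096.

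Promoter sequence was available for 7 of the 10 genes in the RefSeq table (GRCm38.p6), as 10 windows of the 250 bases upstream of a transcript start, of which Lef1 had 4. The 2 windows below are shown because Sfrp2 was the gene that changed and Dkk1 the gene whose level differed most among the controls. Capitals mark the letters CTTTGA or their reverse complement TCAAAG, the core of the motif that LEF and TCF factors bind. The Sfrp2 window is chr3:83766071-83766320 on the plus strand and the Dkk1 window is chr19:30549497-30549746 on the minus strand, and both are written 5′ to 3′ in the direction of transcription.
Sfrp2: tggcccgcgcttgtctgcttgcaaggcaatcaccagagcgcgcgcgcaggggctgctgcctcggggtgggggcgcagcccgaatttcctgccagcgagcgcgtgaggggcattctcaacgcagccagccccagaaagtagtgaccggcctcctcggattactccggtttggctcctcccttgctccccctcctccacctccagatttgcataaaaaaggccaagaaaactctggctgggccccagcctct
Dkk1: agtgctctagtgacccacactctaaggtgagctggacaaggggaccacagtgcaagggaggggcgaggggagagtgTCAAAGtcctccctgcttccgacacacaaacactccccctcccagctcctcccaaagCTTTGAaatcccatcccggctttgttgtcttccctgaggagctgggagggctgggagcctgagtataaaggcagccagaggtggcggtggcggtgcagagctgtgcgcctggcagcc
The Dkk1 window holds the LEF and TCF letters 2 times, on opposite strands, and the Sfrp2 window holds none. Of the 10 windows, 2 held these letters, the Dkk1 window and that of 1 Lef1 start, against 13.8% of 32851 windows of the same length in the table. The letters GGAATG, or CATTCC on the other strand, which TEAD factors bind, were in 0 of the 10 windows, against 12.6% of all windows. The Lef1 windows chr3:131110047-131110296 and chr3:131110073-131110322 overlap, and neither holds either set of letters. The 10 windows are therefore not all separate sequences. These matches describe the letters only.

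The first question was whether the ligand and its receptor followed the loss of Yap1 and Wwtr1. Wnt5a, which drives outgrowth and polarity in limb and face, measured 58.5 and 57.4 CPM in dCKO libraries 1 and 2, against 52.4, 49.0 and 53.9 CPM in control libraries 1, 2 and 3. Both dCKO values were above every control value, but the difference was small, a log2 fold change of 0.16 (SE 0.13, 95% interval −0.11 to 0.43, edgeR adjusted p = 0.489). Ror2, which encodes a receptor tyrosine kinase for Wnt5a, measured 83.3 and 92.8 CPM in dCKO libraries, against 70.6, 62.2 and 98.5 CPM in controls. Its groups overlapped, because control replicate 3 was higher than either dCKO library. The log2 fold change of Ror2 was 0.19 (SE 0.15, 95% interval −0.13 to 0.52, edgeR adjusted p = 0.496). Without control replicate 3, Ror2 passed the threshold (log2 fold change 0.40, SE 0.12, edgeR adjusted p = 0.0498). After the GC trend was removed its estimate was −0.12, with the median over all genes tested at −0.096. The largest gain that the intervals allow is 1.35-fold for Wnt5a and 1.43-fold for Ror2.

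**Figure D1:**
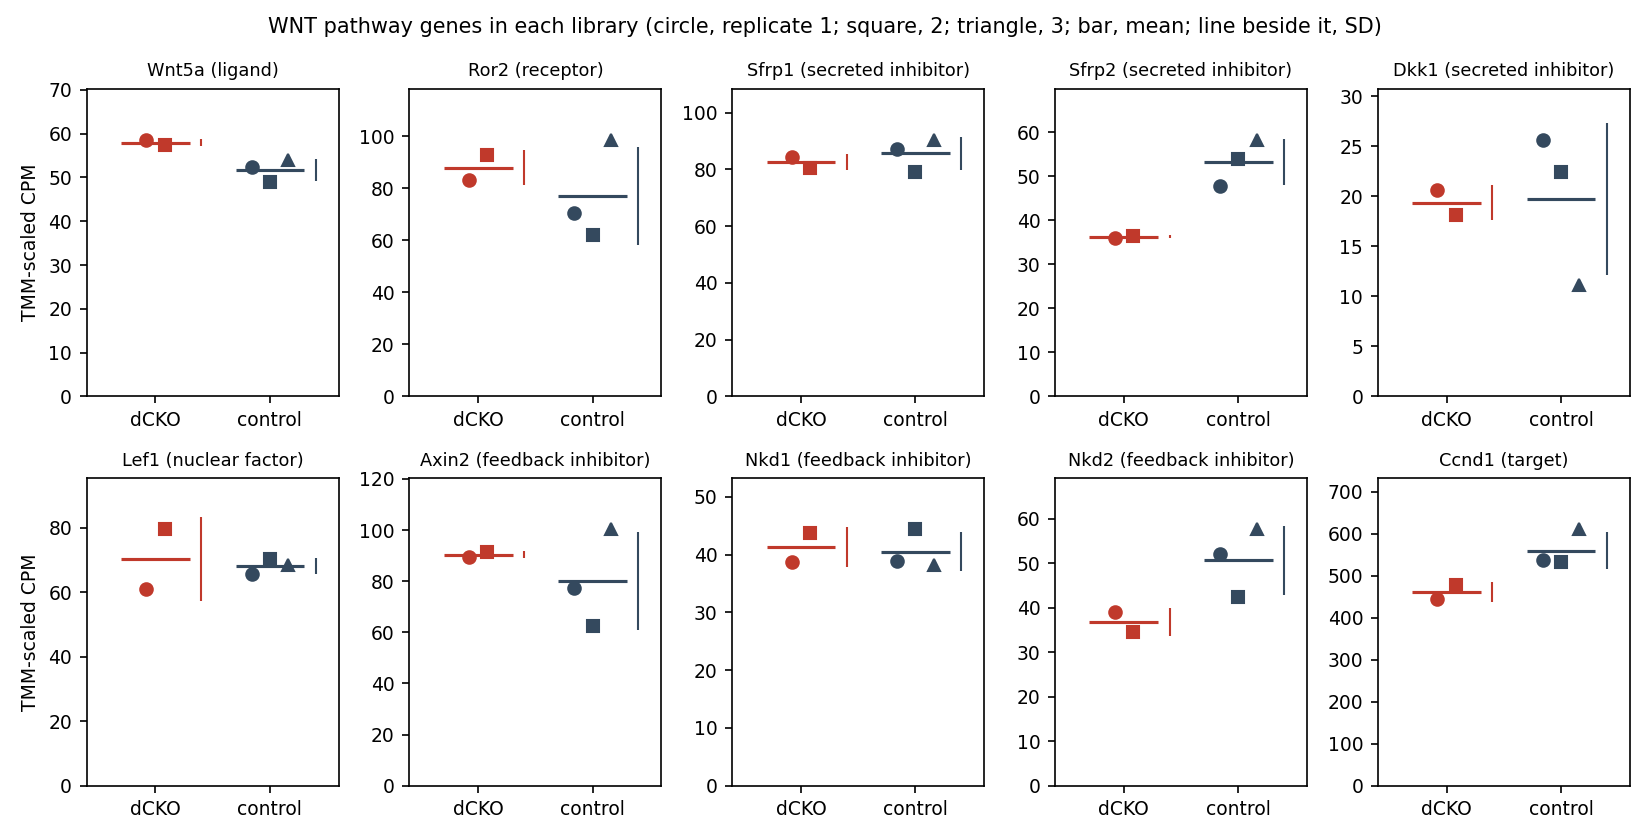
TMM-scaled CPM of the 10 genes in each library, with dCKO at the left and control at the right of each panel; points are libraries (circle, square and triangle for replicates 1, 2 and 3), horizontal bars are group means and the vertical line beside them is the SD (n = 2 and 3). Sfrp2 lies at 36.0 and 36.5 CPM in dCKO libraries, below all 3 controls, and control replicate 3 is the lowest library for Dkk1 and the highest for Axin2 and Ror2.

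Among the secreted inhibitors, Sfrp2 fell while its close relative Sfrp1 did not pass the test. Both encode secreted Frizzled-related proteins, which share the ligand-binding domain of Frizzled receptors and bind WNT proteins outside the cell. Sfrp2 measured 36.0 and 36.5 CPM in dCKO libraries, against 47.8, 54.0 and 58.2 CPM in control libraries 1, 2 and 3. The dCKO libraries lay close together and below every control. Means were 36.3 ± 0.34 CPM in dCKO tissue (SD, n = 2) and 53.3 ± 5.22 CPM in control tissue (SD, n = 3), a log2 fold change of −0.55 (SE 0.14, 95% interval −0.85 to −0.26, edgeR adjusted p = 0.0214). The call rests on few libraries. Leaving out control replicate 2, dCKO replicate 1 or dCKO replicate 2 kept the estimate between −0.56 and −0.53 but raised the edgeR adjusted p to 0.061, 0.185 and 0.124. In the authors' deposited table Sfrp2 had a log2 fold change of −0.53 and an adjusted p of 0.0878.

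Sfrp1 measured 84.5 and 80.6 CPM in dCKO libraries, against 87.4, 79.3 and 90.3 CPM in controls. The groups overlapped, and the 95% interval of its log2 fold change ran from −0.30 to 0.19 around −0.05 (SE 0.12, edgeR adjusted p = 0.842). The ratio of Sfrp2 to Sfrp1 counts within a library, which no library scaling can alter, was 0.427 and 0.453 in dCKO libraries, against 0.547, 0.681 and 0.645 in controls. Both dCKO ratios were below every control ratio (0.440 ± 0.019 against 0.624 ± 0.069, SD, n = 2 and 3). The exact two-sided permutation p was 0.2, the smallest that 2 against 3 libraries can give. This ratio was computed after the values of both genes had been seen.

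Summed markers of neural crest mesenchyme stood at 0.916 of their control level in the same libraries in which Sfrp2 stood at 0.681, and 2 of the 12 markers were called higher and 3 lower. The part of the cell make-up in the Sfrp2 result was not tested. An antisense gene, Gm26771, overlaps exons of Sfrp2 in GENCODE M21, and no source used here says whether the authors counted by strand, so the pair's reads cannot be told apart. The same holds for Wnt5a with Gm2670, Lef1 with Gm43352, Axin2 with Gm11670 and Ccnd1 with LTO1.

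Dkk1, which encodes an antagonist that binds the LRP co-receptors of the canonical branch, measured 20.6 and 18.1 CPM in dCKO libraries, against 25.6, 22.5 and 11.2 CPM in control libraries 1, 2 and 3. The dCKO libraries lay inside the range of the controls, which was set by 1 library. Control replicate 3 had 73 Dkk1 counts, and its 95% counting interval of 8.74 to 14.0 CPM did not reach those of control replicate 1 (22.2 to 29.5 CPM) and control replicate 2 (19.2 to 26.1 CPM). The interval is an exact Poisson one and covers counting error only. The log2 fold change of Dkk1 was −0.04 with the widest interval of the 10 genes, −0.56 to 0.48 (SE 0.25, edgeR adjusted p = 0.951), and without control replicate 3 it was −0.32 (SE 0.17, edgeR adjusted p = 0.238). With all 5 libraries, the interval covers folds from 0.680 to 1.40.

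None of the canonical readouts Lef1, Axin2, Nkd1, Nkd2 and Ccnd1 passed the edgeR test, although 2 of them, Nkd2 and Ccnd1, had an unadjusted p below 0.05. Lef1, which encodes a DNA-binding partner of beta-catenin and is itself a WNT-responsive gene, measured 61.0 and 79.4 CPM in dCKO libraries, against 65.6, 70.3 and 68.4 CPM in controls. The 2 dCKO libraries lay on either side of the controls. Its log2 fold change was 0.05 (SE 0.13, 95% interval −0.23 to 0.33, edgeR adjusted p = 0.885). Axin2, a scaffold of the destruction complex and a widely used readout of canonical signalling, measured 89.6 and 91.3 CPM in dCKO libraries, against 77.4, 62.4 and 100.2 CPM in controls. As with Ror2, control replicate 3 was the highest library and the groups overlapped. The log2 fold change of Axin2 was 0.18 (SE 0.15, 95% interval −0.14 to 0.50, edgeR adjusted p = 0.524). It was 0.36 without control replicate 3 (SE 0.13, edgeR adjusted p = 0.0787). After the GC trend was removed it was −0.066, with the median over all genes tested at −0.096.

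Nkd1 and Nkd2 encode naked cuticle proteins, which bind Dishevelled and dampen the signal. Nkd1 measured 38.8 and 43.7 CPM in dCKO libraries, against 38.9, 44.4 and 38.2 CPM in controls, a log2 fold change of 0.03 (SE 0.14, 95% interval −0.27 to 0.33, edgeR adjusted p = 0.933). Its groups overlapped throughout. Nkd2 measured 39.1 and 34.6 CPM in dCKO libraries, against 52.0, 42.3 and 57.6 CPM in controls. Here both dCKO libraries were below every control, with a log2 fold change of −0.46 (SE 0.15, 95% interval −0.78 to −0.14). Nkd2 missed the threshold (unadjusted p = 0.0076, edgeR adjusted p = 0.0847), and it passed without control replicate 2 (−0.57, edgeR adjusted p = 0.0417). It also passed with total counts as the only scaling (−0.53, edgeR adjusted p = 0.0392) and after the GC trend was removed (−0.67, edgeR adjusted p = 0.0073). In those settings the median over all genes tested was itself −0.076 and −0.096. The ratio of Nkd2 to Nkd1 counts was 1.007 and 0.792 in dCKO libraries, against 1.338, 0.954 and 1.508 in controls, and the groups overlapped (exact two-sided permutation p = 0.4).

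Ccnd1, which encodes the cell cycle regulator cyclin D1 and is a target of beta-catenin among other factors, was the most abundant of the 10. It measured 443.6 and 477.8 CPM in dCKO libraries, against 538.2, 531.8 and 610.2 CPM in controls. Both dCKO values lay below every control. The log2 fold change was −0.28 (SE 0.11, 95% interval −0.51 to −0.05, unadjusted p = 0.0191), and Ccnd1 did not pass over all genes (edgeR adjusted p = 0.139). After the GC trend was removed it did pass, at −0.42 (SE 0.094, edgeR adjusted p = 0.0118), with the median over all genes tested at −0.096.

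**Figure D2:**
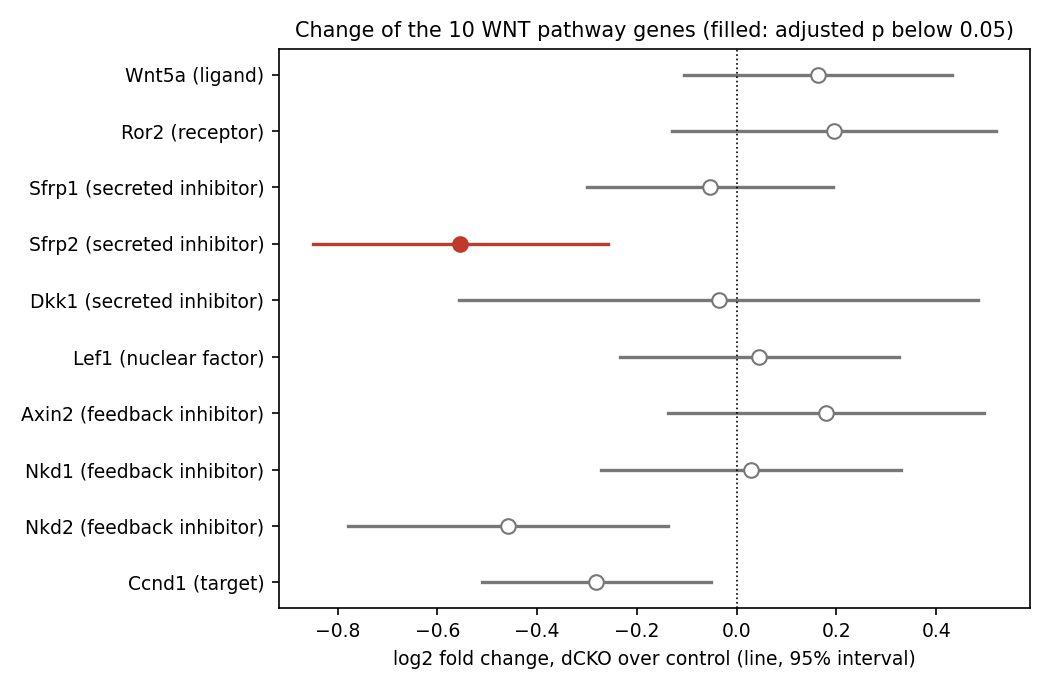
Log2 fold change of dCKO over control for each of the 10 genes, with its 95% interval as a line; the filled point passed the adjusted threshold. Sfrp2 at −0.55 is the only filled point, and the intervals of Nkd2 and Ccnd1 also lie below 0, although neither passed after adjustment over all genes.

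In all, the 2 groups did not overlap for 4 of the 10 genes, Sfrp2, Nkd2 and Ccnd1 with lower and Wnt5a with higher dCKO values. Over all genes tested 37.6% did so, 18.6% with lower and 19.0% with higher dCKO values. The authors' deposited table gave the same sign for these 10 genes, with log2 fold changes from −0.53 for Sfrp2 to 0.22 for Ror2, and none of the 10 had an adjusted p below 0.05 there. That table called 536 of 18610 genes, or 2.88%.

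The controls themselves differed for some of these genes. The highest control exceeded the lowest 2.30-fold for Dkk1, 1.61-fold for Axin2 and 1.58-fold for Ror2, against a median of 1.26-fold over all genes tested. For Dkk1, 6.36% of all genes tested had a larger spread. Lef1 and Wnt5a were the steadiest, at 1.07-fold and 1.10-fold. Control replicate 3 lay 1.07 below the mean of the other controls on the log2(CPM + 0.5) scale for Dkk1, and 0.57 and 0.53 above it for Ror2 and Axin2. Over all genes tested, the median distance of a control from the mean of the other two on that scale was 0.16, 0.15 and 0.20 for control replicates 1, 2 and 3.

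Set per kilobase of the longest GENCODE M21 transcript, so that genes can be compared, Ccnd1 stood at the top with 123.2 ± 6.47 CPM per kb in dCKO tissue and 149.7 ± 11.6 CPM per kb in controls (SD, n = 2 and 3). Sfrp2 was next in the controls, at 18.1 ± 0.17 CPM per kb in dCKO tissue against 26.6 ± 2.61 CPM per kb in control tissue, where every control library exceeded every Sfrp1 value. In dCKO tissue it took place 6 of the 10. Sfrp1, Ror2, Axin2 and Lef1 followed between 18.9 and 22.1 CPM per kb in dCKO tissue and between 18.6 and 19.6 CPM per kb in controls, and neighbours among these 4 overlapped in the controls. Nkd2, Nkd1, Dkk1 and Wnt5a were the lowest, between 7.98 and 10.1 CPM per kb in dCKO tissue and between 7.39 and 12.6 CPM per kb in controls, again with neighbours overlapping. Sfrp2 was therefore the member whose place in the order differed most between the groups.

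The rest of the pathway was described with 118 further genes in 9 role groups, of which 99 had enough counts to be tested. In dCKO tissue 3 of them rose and 0 fell by the edgeR test, or 3.03% of those tested, against 6.42% of all genes. This split was 3 higher and 4 lower after the GC trend was removed, and 5 and 5 with the replicate block added to that. Before adjustment, 18 of the 99 had a p below 0.05, or 18.2%, compared with 21.5% of all genes tested. DESeq2 likewise called 3 higher and 0 lower, and limma-voom called 3 higher and 1 lower, Wnt2b. The median log2 fold change was 0.07, with 62 genes above and 37 below 0. It turned to −0.0034 with total counts only, −0.062 after the GC trend was removed and −0.026 with the block as well. The median over all genes tested moved too, from −0.00062 to −0.076, −0.096 and −0.086 in the same settings. The pathway median stayed above the median of all genes in each. The groups did not overlap for 35 of the 99, of which 26 had higher dCKO values, against 37.6% and 19.0% of all genes tested.

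Fzd5, a Frizzled receptor gene, measured 16.3 and 17.2 CPM in dCKO libraries, against 5.91, 3.92 and 5.65 CPM in controls. Both dCKO libraries were well above all controls, with a log2 difference of 1.70 (SE 0.24, edgeR adjusted p = 8.27e-05). Vangl1, which encodes a membrane protein of the planar polarity branch, measured 32.5 and 31.5 CPM in dCKO libraries, against 14.3, 14.2 and 13.6 CPM in controls. Its groups did not overlap either, with a log2 difference of 1.19 (SE 0.17, edgeR adjusted p = 8.27e-05). Wnt6, a ligand gene known from surface ectoderm, measured 60.6 and 53.8 CPM in dCKO libraries, against 33.4, 34.5 and 41.9 CPM in controls. It rose by 0.65 on the log2 scale (SE 0.14, edgeR adjusted p = 0.0080), a call lost without control replicate 1 or dCKO replicate 1 (edgeR adjusted p = 0.0562 and 0.140) and after the GC trend was removed (0.29, edgeR adjusted p = 0.151). Fzd5 and Vangl1 passed under all 15 alternatives. The summed epithelial markers were 1.33 times as high in dCKO tissue as in controls, with 3 of 12 called higher. In the same libraries the summed markers of red cells were 17.9 times, of megakaryocytes and platelets 11.7 times, of myeloid cells 2.11 times and of neural and glial cells 1.45 times their control level. Of the tested markers, 10 of 10, 6 of 6, 1 of 6 and 1 of 5 of these lists were called higher. Arch core mesoderm stood at 1.25, endothelium at 1.09 and cardiac muscle at 0.725 of the control level. Of their tested markers, 0 of 8, 1 of 8 and 0 of 4 were called higher. The cardiac sum was 40.1 CPM in control replicate 1, against 12.3 and 11.6 CPM in control replicates 2 and 3. The part of any of these cell types in the 3 genes was not tested. Fzd5 and Vangl1 also have overlapping genes on the other strand in GENCODE M21, Gm38058 and Gm16160.

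**Figure D3:**
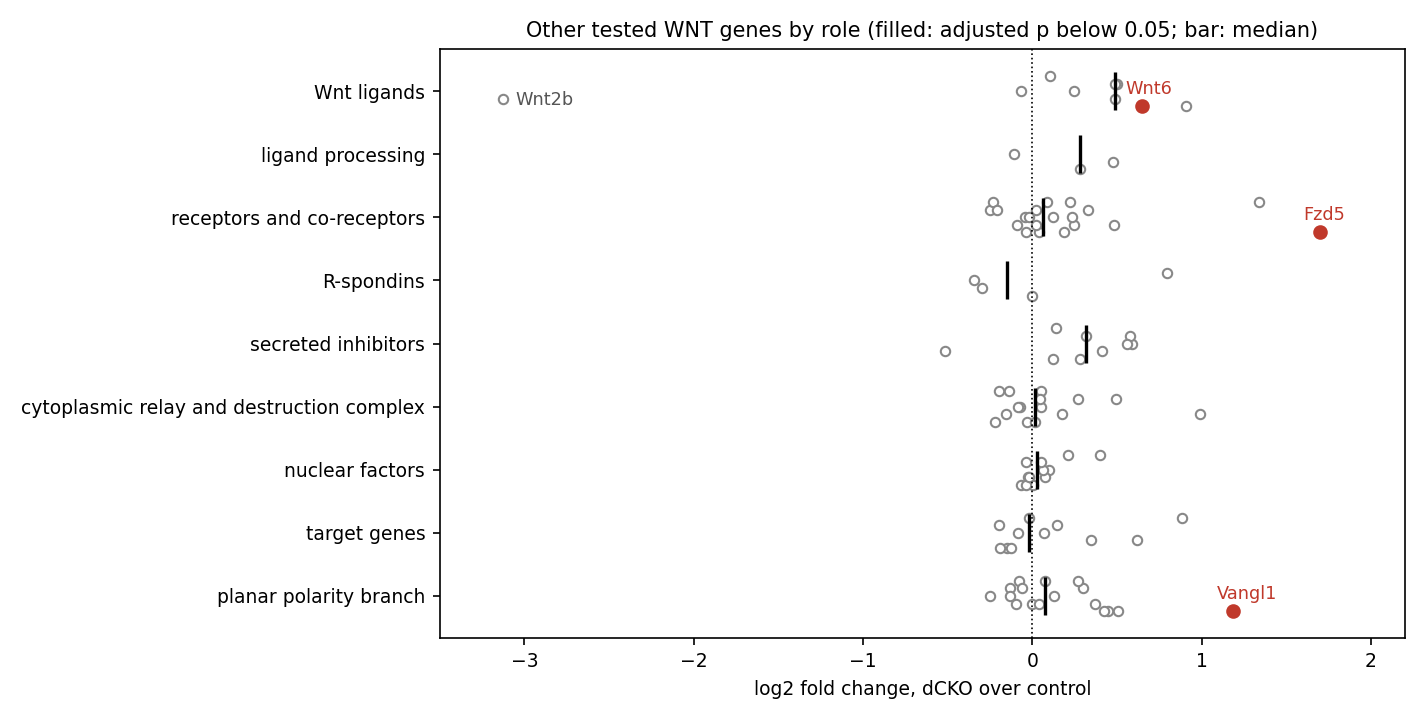
Log2 fold change of dCKO over control for 99 other tested WNT pathway genes, grouped by role, with 1 point per gene, filled where it passed the adjusted threshold and a bar at each group's median; Fzd3 stands in 2 groups. Fzd5, Vangl1 and Wnt6 are the filled points, and Wnt2b at the far left rests on 3 counts in dCKO libraries and 26 in controls.

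By role, the ligands had the highest median, 0.49 over 9 tested genes, which leave out the member Wnt5a (0.16). Of the 9, 1 rose and 0 fell by the edgeR test. An unadjusted p below 0.05 was found for 5, or 55.6%, against 21.5% of all genes tested. Of these 5, Wnt2b was lower in dCKO tissue and the others were higher. In the same libraries the median log2 fold change of the 12 epithelial markers was 0.40. The part of the cell make-up in the ligand median was not tested. The median of the ligands was above 0 under all 15 alternatives, between 0.14 and 0.52, at 0.16 after the GC trend was removed, and the highest of the role groups in 11 of them. Wnt4 stood at 36.2 and 34.9 CPM in dCKO libraries, against 25.1, 24.3 and 26.1 CPM in controls, without overlap, and did not pass (edgeR adjusted p = 0.0578). Wnt2b had 0 and 3 counts in dCKO libraries, against 11, 12 and 3 counts in controls, a ratio of rates of 0.104 (95% counting interval 0.020 to 0.340), and did not pass (edgeR adjusted p = 0.0625). Of the 18 ligand genes, 9 had too few counts for the test, among them Wnt1, the gene that lends its regulatory sequence to the Cre driver, with 0 and 1 counts in dCKO libraries and 0 in each control.

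Of 20 receptors and co-receptors only Fzd5 was called by edgeR, 3 had an unadjusted p below 0.05, and the most abundant, Fzd2, measured 250.5 and 272.8 CPM in dCKO libraries, against 255.5, 256.7 and 296.8 CPM in controls. After the GC trend was removed, Fzd2 was called lower (log2 fold change −0.34, edgeR adjusted p = 0.0419). The group headed secreted inhibitors had 9 tested genes besides the members. It also holds genes of membrane proteins, Kremen1, Kremen2 and Apcdd1. In this group 0 were called by edgeR, 3 had an unadjusted p below 0.05 and the median was 0.32. Those 3 were Kremen1, Dkk3 and Kremen2. Frzb, a further Frizzled-related inhibitor, measured 115.3 and 137.5 CPM in dCKO libraries, against 117.3, 119.4 and 111.2 CPM in controls. Kremen1, which encodes a receptor for Dickkopf proteins, measured 73.4 and 78.0 CPM in dCKO libraries, against 51.9, 61.8 and 57.0 CPM in controls, without overlap (edgeR adjusted p = 0.0603).

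In each role group with 0 edgeR calls, DESeq2 and limma-voom also called 0. Some other settings did call genes in these groups. After the GC trend was removed, 1 gene of the cytoplasmic relay was called higher and 1 lower. Without the count filter 1 gene of the inhibitor group was called higher, and with the replicate block 1 target gene was. In the cytoplasmic relay, 0 of 15 genes were called by edgeR, with 2 at an unadjusted p below 0.05. Ctnnb1, the gene of beta-catenin, measured 1397 and 1408 CPM in dCKO libraries, against 1536, 1368 and 1517 CPM in controls. Nuclear factors had 0 of 12 called by edgeR, with 0 at an unadjusted p below 0.05, and Tle3, a co-repressor and the most abundant of them, measured 252.9 and 296.1 CPM in dCKO libraries, against 259.8, 271.9 and 312.9 CPM in controls. Of 11 tested target genes 0 were called by edgeR and 1 had an unadjusted p below 0.05. That one was Myc, a growth regulator, at 115.8 and 121.2 CPM in dCKO libraries, against 96.8, 86.6 and 96.7 CPM in controls (edgeR adjusted p = 0.0936). Ccnd2, the relative of Ccnd1 and the most abundant target, measured 599.7 and 635.1 CPM in dCKO libraries, against 610.7, 652.6 and 791.1 CPM in controls, with overlap. In the planar polarity branch Vangl1 was the 1 gene of 17 called, 4 had an unadjusted p below 0.05, and Rac1, the most abundant, measured 249.4 and 265.3 CPM in dCKO libraries, against 273.2, 287.3 and 286.0 CPM in controls. The small groups were also without calls by edgeR: 0 of 3 ligand processing genes, where Wls measured 127.3 and 128.4 CPM in dCKO libraries, against 157.1, 125.4 and 130.6 CPM in controls, and 0 of 4 R-spondins, where Rspo2 measured 34.0 and 41.1 CPM in dCKO libraries, against 53.7, 47.6 and 37.1 CPM in controls, with 0 in either group at an unadjusted p below 0.05.

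How far each member's estimate moved with the processing is shown by its 15 alternatives. Sfrp2, Nkd2, Ccnd1 and Sfrp1 were lower in dCKO tissue in all 15 and Wnt5a was higher in all 15. Sfrp2 passed in 12 of them, Nkd2 in 4, Ccnd1 in 2, Ror2 in 2 and Axin2 in 1. The 2 for Ror2 were without control replicate 3 and with the replicate block. These settings are not separate checks, as no dCKO library has the number 3. Ror2 and Axin2 were higher in 14 of 15, Lef1 in 13 and Nkd1 in 9, and Dkk1 was lower in 10.

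**Figure D4:**
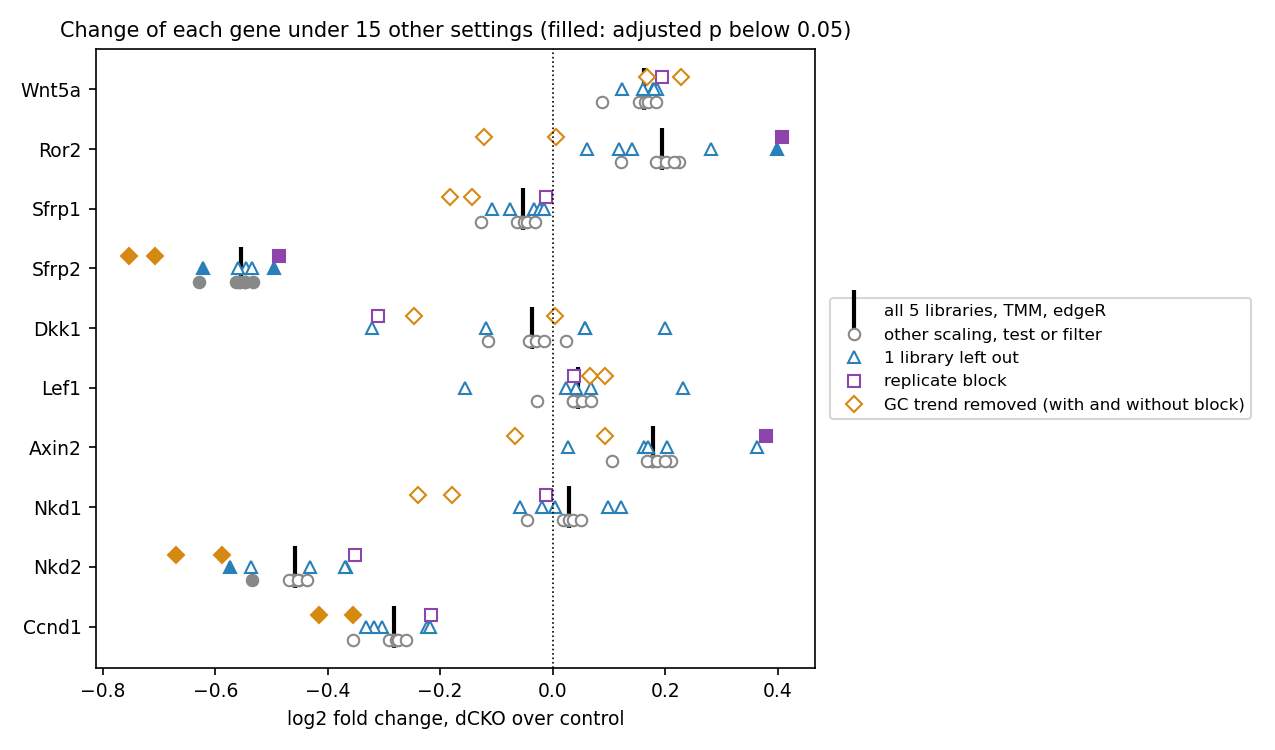
Log2 fold change of dCKO over control for each of the 10 genes with all 5 libraries (black bar) and under 15 other settings (points, by kind of setting; filled where the adjusted p was below 0.05). Sfrp2 keeps to values between −0.75 and −0.49, whereas Dkk1 moves from −0.32 to 0.20 depending on the library left out.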

How the data were processed

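The data were 5 libraries, 2 dCKO and 3 control, grouped by the sample titles. Per the labels' protocols, libraries followed the Ion Total RNA-Seq v2 protocol after selection of poly(A) RNA. The authors deposited raw counts of reads for each gene symbol, as whole numbers with totals that differ by library; the count columns headed WT were matched to the control titles by replicate number. The submitters' processing notes name the mm9 build, DESeq 1.16.0 and HTSeq 0.5.4p3. Aligner, annotation, counting mode and strand: not given in the sources used here. Per the file headers, the authors' deposited table holds a signal per gene (mean normalized count, overall and per group), the fold change as a ratio of group means, its log2 value, a p-value and an adjusted p-value.

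The test used edgeR 4.0.16 in R 4.3.3: filterByExpr (minimum count 10, minimum total 15), TMM scaling, quasi-likelihood F test of dCKO against control with no covariate, two-sided, adjusted over all genes tested. SEs divide the absolute log2 fold change by the square root of F. The main edgeR fit and the limma-voom fit were run on simulated data, and the other settings were not. Within each group, every pair of libraries exceeded sampling noise (4.28 to 13.4 chi-square per gene), and none was merged. Alternatives were RLE scaling, total counts only, TMM without the erythroid markers, DESeq2 1.42.0, limma-voom (limma 3.58.1), no filter beyond 1 count in all, a filter of 1 CPM in 2 libraries with a mean of at least 5 CPM, omission of each library, the replicate number as a block, removal of each library's loess trend with GC content (known for 99.3% of genes tested), and that with the block. Where 1 dCKO library was left, it was taken to vary like the controls. The count table holds 27 symbols that a spreadsheet turned into dates, none named here. The files follow mm9, so GRCm38 served only for lengths, GC, overlapping genes and promoter letters. Protein sequences were not analysed here.

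The members, the pathway and marker lists and the tests were chosen with earlier results of these data known. Named genes were the 10 members, Yap1 and Wwtr1, the pathway genes called, the most abundant gene of each role and the globins. Wnt1, Wnt2b, Wnt4, Kremen1, Kremen2, Apcdd1, Dkk3, Myc and the paralog ratios were added after their values were seen.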

Additional observations from a re-analysis of the deposited data

How the results depend on the processing

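The 15 alternatives gave 315 values for the 21 named genes, of which 271 kept their direction and their side of the threshold, 7 kept the direction and no longer passed, 11 kept it and newly passed, and 26 changed sign. No sign change belonged to a gene called with all 5 libraries, and their causes were not tested. Without the GC trend the log2 fold change was −0.12 for Ror2, −0.066 for Axin2, −0.18 for Nkd1, 0.0038 for Dkk1 and 0.0078 for Wls. In that setting the median over all genes tested was itself −0.096. With total counts only the log2 fold change was −0.027 for Lef1 and −0.046 for Nkd1, against a median of −0.076 over all genes tested. With limma-voom it was 0.023 for Dkk1. With 1 library left out it ranged from −0.32 to 0.20 for Dkk1, −0.16 to 0.23 for Lef1, −0.057 to 0.12 for Nkd1, −0.17 to 0.0033 for Wls, −0.10 to 0.028 for Fzd2, −0.0045 to 0.26 for Frzb and −0.15 to 0.084 for Tle3.

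The 10 members had 1 call with all libraries, 2 with total counts only, 0 to 2 with 1 library left out and 3 without the GC trend. Both times that 0 were called, 1 dCKO library remained. The other pathway genes had 3 calls, 6 without the count filter, 2 to 12 with 1 library left out, the highest without control replicate 3, and 7 without the GC trend. Over all genes the 816 calls became 442 to 1637, again highest without control replicate 3. Replicate numbers are shared by the groups, but nothing in the labels ties same-numbered libraries together. The deviations of the 2 numbered pairs had a correlation across genes of 0.045. With 1 difference per group, this value cannot show whether same-numbered libraries were handled together. No dCKO library has the number 3, so under the replicate block control replicate 3 informs the estimates only through the scaling and the spread. The estimates lay near those without control replicate 3, at 0.41 against 0.40 for Ror2 and 0.38 against 0.36 for Axin2. With the replicate block the calls were 2121 over all genes, 3 among the members (Sfrp2, Ror2 and Axin2) and 13 among other pathway genes, with Nkd1 at −0.012, Fzd2 at 0.029 and Tle3 at 0.043. With the block and the GC trend removed, they were 1483, 3 (Sfrp2, Nkd2 and Ccnd1) and 10, with Nkd1 at −0.24, Wls at 0.038 and Frzb at −0.020. Depth limits low genes most: 19 of the 118 pathway genes had too few counts for a test.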
